A study of Rattus norvegicus with 7 samples.

Results

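The genes described here process antigens and present them on molecules of the major histocompatibility complex (MHC), which is called RT1 in the rat. The set held 10 genes, chosen by name, with every probe set that the array's annotation gives to them alone: 22 probe sets of the 8740 analysed, for 10 of 4736 gene symbols. Of these, 6 genes with 10 probe sets belong to class I processing (Psmb8, Psmb9, Tap1, Tap2, B2m and RT1-S3) and 4 genes with 12 probe sets to class II (RT1-DMb, RT1-Da, RT1-Ba and Cd74). The set was proposed with these arrays' signals by cell type and dose in view, so the members' values are a description and carry no test. A further probe set that the annotation shares between B2m and other genes, 6 symbols in all, was left out.

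Primary cultures of hippocampal neurons or hippocampal astrocytes from Wistar rats, labelled as 17-day-old, were kept in one defined medium and exposed for 24 h to an extract of grape seeds, which are rich in polyphenols. The doses were 0, 1 and 10 µg/ml for neurons, with a further 100 µg/ml for astrocytes, and total RNA from each of the 7 combinations was measured on 1 Affymetrix array. No combination was repeated, so a change between single arrays has no error, and precision is limited by how few arrays there are. The design asked how the extract changed gene expression in each kind of culture.

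Signals are the authors' linear intensities, scaled to a common level on every array (2%-trimmed means of 500.731 to 500.874). A log2 change was taken after every signal below a floor of 17.9, the 25th percentile over the arrays, was raised to it. The median probe set changed by -0.26 log2 in astrocytes at 100 µg/ml and by -0.10 or less in size in the other comparisons with untreated cells, so for members changes at 100 µg/ml are also given relative to -0.26. Neuron markers such as Nell2 (3550 to 4013 in neurons, 15.5 to 21.8 in astrocytes) matched the labels. The astrocyte arrays also carried signals of C1qb, a complement gene of microglia, at 1579 to 3367 (156 to 327 in neurons). Of 9 tested markers of microglia and macrophages, limma called 5 higher on the astrocyte arrays, C1qb among them, and 1 lower (Coro1a). Of 7 tested astrocyte markers, limma called 3 higher on the astrocyte arrays (S100b, at 6986 to 9085 against 1966 to 2127, Agt and Apoe) and 2 lower (Aqp4, and Slc1a3 at 966 to 4162 against 9644 to 9877). Of all probe sets it called 12.2% higher and 18.0% lower. Of the astrocyte markers, only S100b kept its call without the untreated neurons or without those at 1 µg/ml. Without neurons at 10 µg/ml Aqp4 and Slc1a3 lost theirs. The calls of Aif1, Fcgr2b and Coro1a, all microglia and macrophage markers, were lost without any one neuron array or without astrocytes at 10 µg/ml. In such bulk RNA, fewer cells of a type and less RNA per cell cannot be told apart.

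As background, MHC class I molecules display peptides from proteins made inside the cell. The immunoproteasome, in which Psmb8 and Psmb9 replace standard catalytic subunits, cuts these proteins, the Tap1 and Tap2 transporter moves the peptides into the endoplasmic reticulum, and there they are loaded onto a heavy chain, such as RT1-S3, paired with beta-2-microglobulin (B2m). Class II molecules, pairs of an alpha chain (RT1-Da, RT1-Ba) and a beta chain, display peptides from engulfed material and are typical of professional antigen-presenting cells, which in the brain are mainly microglia. Cd74, the invariant chain, guards the class II groove until it is degraded, and RT1-DMb, with RT1-DMa, exchanges the remaining fragment for a peptide. Interferons are well known inducers of class I processing genes, while class II genes depend on the transactivator CIITA, which acts through promoter elements called the X and Y boxes.

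Promoter sequences, 250 bases before to 50 after the annotated start, were given for 9 of the 10 members in RefSeq (build GRCr8). They are shown because the class I genes were higher together at one astrocyte dose and the class II genes were not. The motifs were chosen with the sequences known, so their counts describe these windows and carry no test. The core of the interferon-stimulated response element, searched on both strands as GAAA, any 2 bases and GAAA, occurred in the windows of 5 of 6 class I genes and 0 of 3 class II genes, and in 3.92% of all 33469 promoters of that length. Each is printed 5′ to 3′ on the strand of its gene with the element in capitals. In Psmb8, Tap1 and RT1-S3 it stands in reverse complement, and in Psmb8 it overlaps the annotated start.
Psmb8, chr20:4657026-4657060, minus strand: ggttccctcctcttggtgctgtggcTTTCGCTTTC
Tap1, chr20:4668630-4668689, minus strand: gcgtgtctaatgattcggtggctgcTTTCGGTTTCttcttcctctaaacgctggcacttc
Tap2, chr20:4652303-4652362, minus strand: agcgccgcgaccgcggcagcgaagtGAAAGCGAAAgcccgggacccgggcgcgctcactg
B2m, chr3:129549155-129549214, plus strand: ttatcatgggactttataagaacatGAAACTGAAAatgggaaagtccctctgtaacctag
RT1-S3, chr20:2675391-2675450, plus strand: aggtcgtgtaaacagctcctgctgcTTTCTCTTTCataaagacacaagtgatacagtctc

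Psmb9 had no such core in its window. Its annotated start lies 457 bases from that of Tap1, which is read in the opposite direction, and the Tap1 element begins 121 bases before the Tap1 start and 336 bases before the Psmb9 start, between the pair of genes. A GCAAC (as in many X boxes) followed after 20 to 40 bases by ATTGG (the Y box, an inverted CCAAT), searched on the strand of the gene, occurred in 2 of 3 class II windows and 0 of 6 class I windows, and in 0.394% of all promoters. This pair above all was chosen with the sequences known, so its share of the class II windows is no test against all promoters. The 2 windows are printed with these letters in capitals.
RT1-Da, chr20:4515308-4515395, plus strand: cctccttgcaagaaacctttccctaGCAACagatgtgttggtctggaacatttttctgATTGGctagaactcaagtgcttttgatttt
RT1-Ba, chr20:4576956-4577043, plus strand: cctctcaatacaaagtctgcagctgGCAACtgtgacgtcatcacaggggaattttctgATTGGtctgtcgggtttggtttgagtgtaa

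Of the other motifs searched on both strands, the gamma activated site TTCNNNGAA occurred in 1 of 6 class I windows (Psmb8) and 0 of 3 class II windows, against 8.87% of all promoters. CCAAT alone occurred in 4 of 6 and 3 of 3 against 37.5%, and it includes the ATTGG of the pairs above. A loose NF-kB core, GGG followed after any 5 bases by CC, occurred in 3 of 6 and 2 of 3 against 47.3%. These matches describe letters in a window and not factor binding, which was not measured.

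In astrocytes, the class I processing genes were higher at 10 µg/ml than in untreated cells in all 10 of their probe sets, by 0.15 to 1.88 log2. Of these, 6 were at least 2-fold higher, where 4.3% of all 4252 probe sets tested in astrocytes were, and none was 2-fold lower (2.21% of all; 6.51% either way). By gene, at the brightest probe set, the median change was 0.98 log2, with Tap1 highest and B2m lowest. At 100 µg/ml all 10 probe sets were below their 10 µg/ml signal, where the median of all probe sets changed by -0.18 log2. The share of all probe sets that were lower was not counted. Relative to that median the genes ranged from -1.37 (RT1-S3) to -0.06 (B2m) at the brightest probe set, with Tap2 at -0.14. The 2 probe sets for Tap1 were still at least 2-fold above the untreated signal at 100 µg/ml (6.63% of all). At 1 µg/ml none was 2-fold changed (0 of 10, against 2.0% of all).

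Tap1, a subunit of the peptide transporter, had signals of 757, 654, 2535 and 1920 in astrocytes at 0, 1, 10 and 100 µg/ml, and 555, 502 and 529 in neurons at 0, 1 and 10 µg/ml. The 2 higher astrocyte doses stood well above every other array, while the untreated and 1 µg/ml astrocytes were only slightly above the neurons. The change was 1.74 log2 (3.35-fold) at 10 µg/ml, and 1.34 (2.54-fold) at 100 µg/ml or 1.60 relative to all probe sets. Its other probe set, for the same transcript, gave 1.88 and 1.45. With the 3 lower doses averaged as the reference, the 100 µg/ml array stood at 0.83 log2, the 10 µg/ml array being among them.

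Tap2, its partner subunit, had signals of 362, 335, 544 and 436 in astrocytes in the same order of doses, and 234, 216 and 189 in neurons. It followed the order of Tap1 with a smaller change, 0.59 log2 at 10 µg/ml and 0.27 at 100 µg/ml (0.53 relative to all probe sets).

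Psmb8, a catalytic subunit of the immunoproteasome, had signals of 907, 789, 1887 and 1152 in astrocytes and 349, 317 and 321 in neurons. Every astrocyte array was above every neuron array, and the array at 10 µg/ml was the highest of all. The change there was 1.06 log2 (2.08-fold), and that at 100 µg/ml was 0.35 (0.61 relative to all probe sets).

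Psmb9, the other immunoproteasome subunit of the set, had signals of 1205, 1359, 2427 and 1366 in astrocytes and 820, 865 and 850 in neurons at its brightest probe set. The neuron arrays lay close together, and the 10 µg/ml astrocyte array again stood apart from the other astrocyte arrays. The change at 10 µg/ml was 1.01 log2, and 0.84 at its other probe set. At 100 µg/ml it was 0.18 (0.44 relative to all probe sets). Psmb8 and Psmb9 thus lay close to the 2-fold line, and after quantile normalization their changes of 0.99 and 0.94 fell below it, which left Tap1 as the 1 gene of 6 past it instead of 3 of 6. Relative to all probe sets they were 1.15 and 1.11, and with RT1-S3 at 1.05 and Tap1 at 1.84 the count was 4 of 6.

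RT1-S3, a class I heavy chain gene outside the classical set, was measured by 3 probe sets. The brightest gave 592, 499, 1150 and 392 in astrocytes and 256, 122 and 116 in neurons. The second gave 376, 419, 957 and 275 in astrocytes and 184, 173 and 184 in neurons. The third gave 76.0, 108, 254 and 61.9 in astrocytes and 54.5, 52.0 and 41.9 in neurons. In astrocytes all 3 were highest at 10 µg/ml, by 0.96, 1.35 and 1.74 log2, and at 100 µg/ml all 3 were below the untreated signal, by -0.59, -0.45 and -0.30. Relative to all probe sets, the brightest stood at -0.33. From 10 to 100 µg/ml they differed by -1.55, -1.80 and -2.04 log2, so 3 of the 10 class I probe sets passed 2-fold, all lower, where 16.0% of all probe sets tested were lower and 5.1% higher (21.1% either way).

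In neurons the probe sets of RT1-S3 differed. The brightest stood at -1.07 log2 (1 µg/ml) and -1.14 (10 µg/ml) and was the 1 class I probe set of 10 at least 2-fold lower, against 0.292% and 0.472% of the 4453 probe sets tested there (0.561% and 0.764% either way). No class I or class II probe set was 2-fold higher there (0.269% and 0.292% of all). The second was -0.09 and -0.00, and the third -0.07 and -0.38. The low values of the first thus rest on a single untreated array and a single probe set, and the change at 10 µg/ml was -0.61 with both lower doses averaged as reference and -0.51 as the mean over the 3 probe sets. Class I heavy chain genes are near-identical to each other, and which of them a probe set reports is uncertain.

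B2m, the light chain shared by all class I molecules, had signals of 7714, 8703, 8582 and 7291 in astrocytes and 6514, 6500 and 6737 in neurons. All its changes on the deposited scale lay within 0.24 log2 of 0, and no array stood apart. At 100 µg/ml its direction depended on the scale: -0.08 log2 as deposited, 0.18 relative to all probe sets and -0.24 after quantile normalization.

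**Figure D1:**
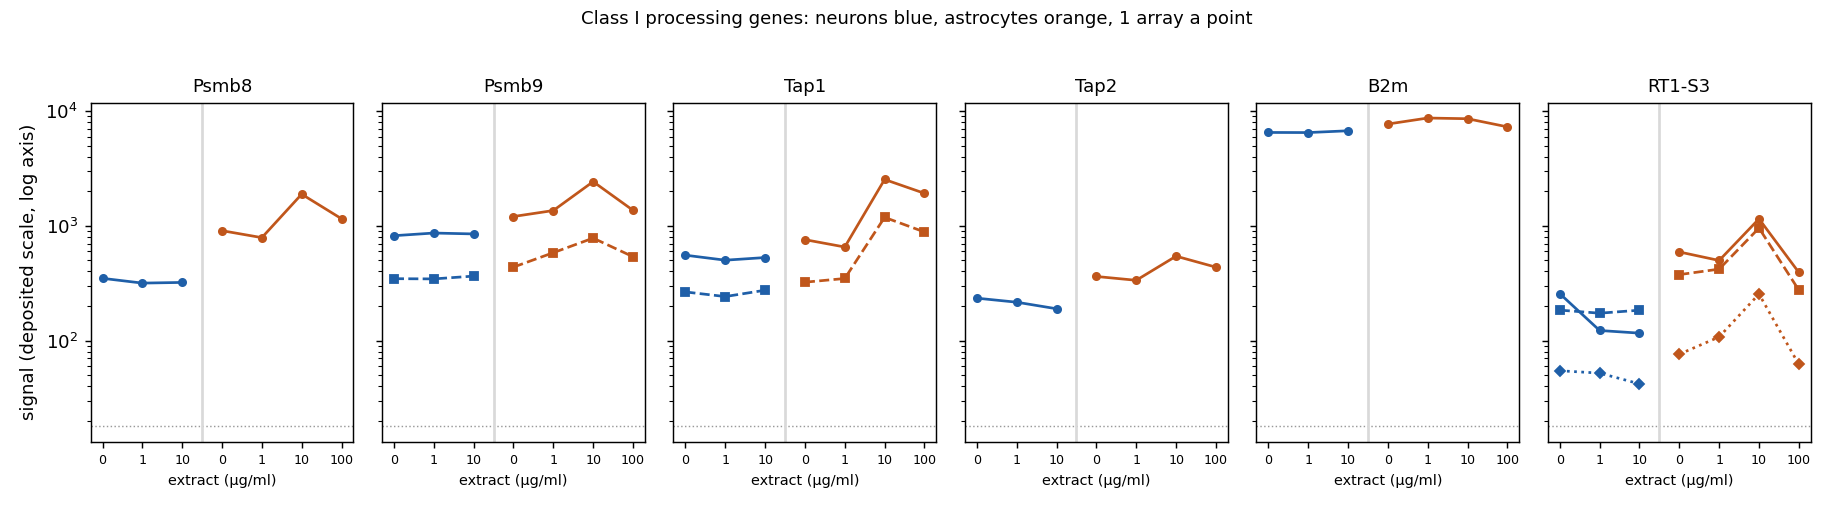
Signal (log axis) of each class I processing gene by extract dose in µg/ml, in neurons (blue, 0 to 10) and astrocytes (orange, 0 to 100), 1 array a point and 1 line per probe set, with the floor of 17.9 dotted. The astrocyte array at 10 µg/ml is the highest for every gene but B2m, and no astrocyte point lies below a neuron point of its own probe set.

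Across the cell types, all 10 class I probe sets had every astrocyte array above every neuron array, where 16.8% of 4709 probe sets did. No member probe set had every astrocyte array below every neuron array, where 28.4% of all did. By gene these differences held in 6 of 6. Leaving out the astrocyte array at 10 µg/ml could not change this count, since removing an array cannot undo such a separation. In untreated cultures alone, astrocytes were higher than neurons by 1.38 log2 for Psmb8, 1.21 for RT1-S3, 0.63 for Tap2, 0.56 for Psmb9, 0.45 for Tap1 and 0.24 for B2m at the brightest probe sets. At 10 µg/ml the same differences were 2.56, 3.31, 1.52, 1.51, 2.26 and 0.35. The order of the genes thus changed with the dose: in untreated cultures Tap1 had a smaller difference than every other class I gene but B2m, and at 10 µg/ml it was exceeded by RT1-S3 and Psmb8 alone.

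The class II genes did not share a pattern. RT1-DMb was far lower in astrocytes at 100 µg/ml, RT1-Da and RT1-Ba stayed dim on all arrays, and Cd74 was somewhat higher in astrocytes than in neurons at every dose. At 10 µg/ml, where the class I genes were highest, the class II median was 0.05 log2. No gene was 2-fold changed at its brightest probe set (0 of 4), near the 6.51% of all tested. Of the dimmer probe sets, 1 of Cd74 was higher (4.3% of all tested) and 1 of RT1-Ba lower (2.21%). Neither of these 2 passed the signal filter behind these shares. At 100 µg/ml 4 of the 12 probe sets were at least 2-fold lower, where 19.0% of all tested were (25.6% either way). These were all 3 of RT1-DMb and 1 of RT1-Ba. The dimmest of RT1-DMb and the 1 of RT1-Ba did not pass the signal filter that this share rests on. The class II median was -0.53 log2 at that dose, or -0.15 without RT1-DMb. The same median was -0.27 relative to all probe sets and -0.17 after quantile normalization. Signals of class II genes other than RT1-DMb were at most 228 on every array, and 6 of the 12 probe sets passed the signal filter in astrocytes and 4 in neurons, against 10 and 9 of the 10 for class I.

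RT1-DMb, the beta chain of the peptide exchange factor, had signals of 1511, 1771, 1452 and 161 in astrocytes at 0, 1, 10 and 100 µg/ml and 729, 488 and 585 in neurons at its brightest probe set. The astrocyte arrays up to 10 µg/ml stood above the neurons and the 100 µg/ml array below them. The second probe set gave 502, 754, 315 and 53.8 in astrocytes and 200, 177 and 167 in neurons. The third, dimmer, gave 82.2, 91.3, 93.7 and 8.0 against 34.2, 21.0 and 18.3. The change at 100 µg/ml was -3.23 log2 (9.41-fold lower), -3.22 and, since its treated signal lay under the floor, at most -2.20. Relative to all probe sets the brightest stood at -2.97, and after quantile normalization at -2.87. It was lower than at 10 µg/ml by a similar amount, -3.18 log2. At 10 µg/ml the probe sets went both ways, at -0.06, -0.67 and 0.19, and the first stood at 0.04 relative to all probe sets.

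RT1-Da, the alpha chain of the class II D molecule, had signals of 82.3, 117, 133 and 74.0 in astrocytes and 179, 132 and 140 in neurons. It was the 1 class II member whose untreated astrocytes lay below untreated neurons by more than 2-fold (-1.12 log2), and at 10 µg/ml the difference was -0.07. In astrocytes the change was 0.51, 0.69 and -0.15 log2 at 1, 10 and 100 µg/ml. The last turned to 0.11 relative to all probe sets and 0.24 after quantile normalization. Its other probe set read 18.7 to 65.9 on the 7 arrays, close to the floor, and its change of 1.53 log2 at 1 µg/ml was the 1 of the 22 at least 2-fold higher there (1.03% of all tested, and 0.964% lower). That probe set did not pass the signal filter behind these shares. With no filter, 466 of 8740 probe sets were 2-fold apart at this dose, against 85 of 4252 with it.

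RT1-Ba, the alpha chain of the class II B molecule, had signals of 110, 120, 90.5 and 59.2 in astrocytes and 119, 83.7 and 91.7 in neurons. The 100 µg/ml array was the lowest of the 7, at -0.90 log2, or -0.64 relative to all probe sets. The other 2 probe sets read between 16.5 and 96.5 and did not follow it: at 100 µg/ml they stood at -1.16 and -0.21, and at 10 µg/ml at -1.57 and, under the floor, at most -0.69. The cell types overlapped in all 3 probe sets.

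Cd74, the invariant chain, had signals of 173, 165, 192 and 214 in astrocytes and 73.5, 78.5 and 74.8 in neurons, and its second probe set 144, 141, 199 and 228 against 43.8, 61.6 and 63.5. Every astrocyte array was above every neuron array in both, and untreated astrocytes were higher by 1.24 and 1.72 log2. With dose the astrocyte signal differed by 0.15 log2 at 10 µg/ml and 0.31 at 100 µg/ml in the first (0.47 and 0.67 in the second), so Cd74 was not lower where RT1-DMb was. Relative to all probe sets the first stood at 0.57 at 100 µg/ml, and after quantile normalization at 0.73. Of the probe sets for a second Cd74 sequence, the brighter read 55.1, 64.1, 119 and 68.5 in astrocytes and was under the floor in neurons, and the other was under the floor on all 7 arrays.

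**Figure D2:**
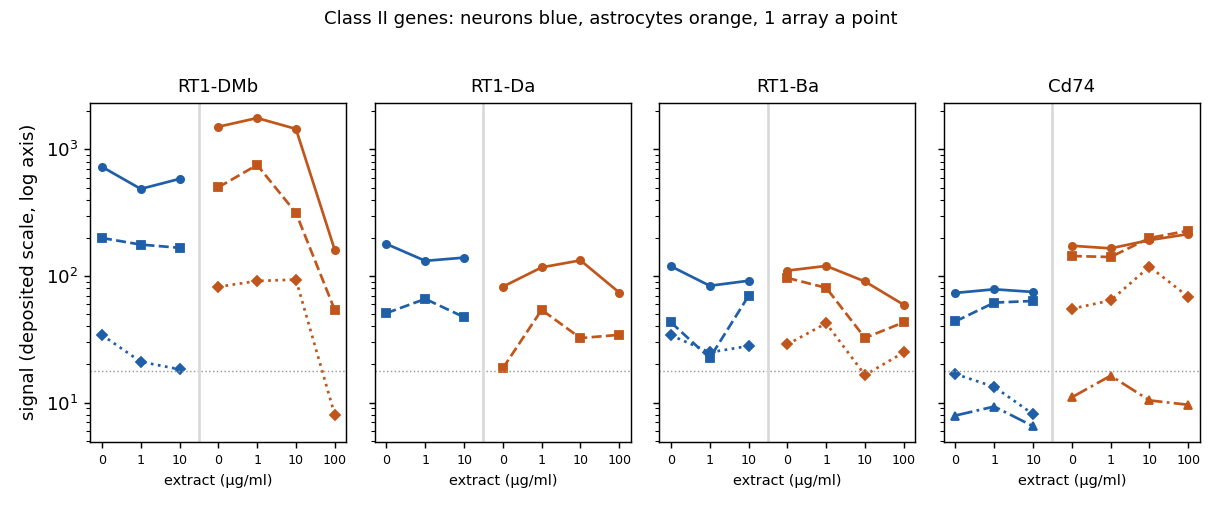
Signal (log axis) of each class II gene by extract dose in µg/ml, drawn in the same way, with the floor of 17.9 dotted. All 3 probe sets of RT1-DMb are lowest in astrocytes at 100 µg/ml, while those of Cd74 above the floor are not.

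**Figure D3:**
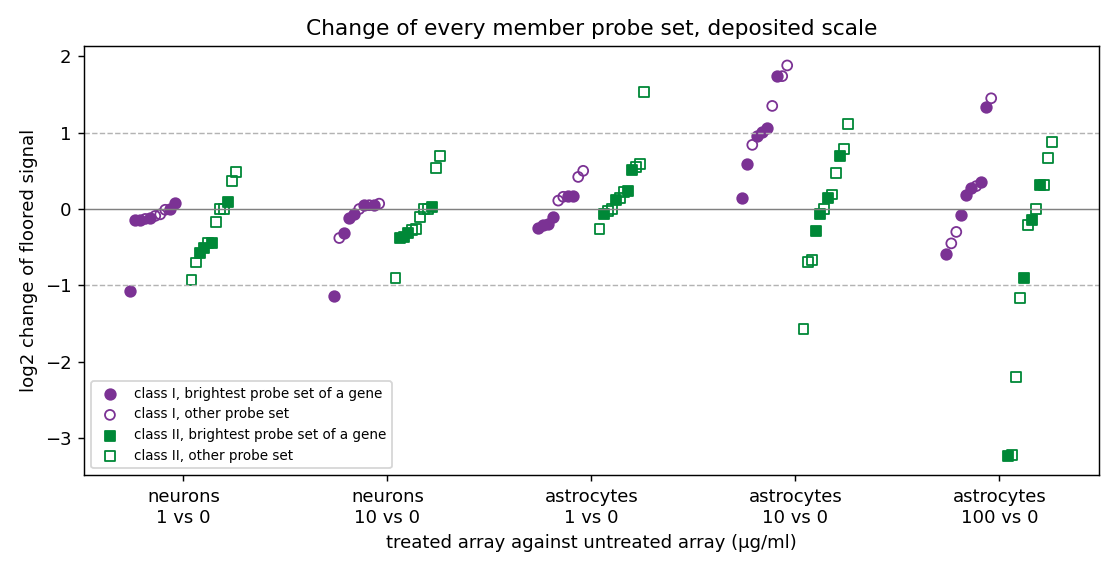
Log2 change of every member probe set from untreated cells of the same type (deposited scale), class I in purple circles and class II in green squares, filled for the brightest probe set of a gene, with dashed lines at 2-fold. All class I points lie above 0 in astrocytes at 10 µg/ml, and the lowest points at 100 µg/ml are the RT1-DMb probe sets.

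Part of the class I machinery is encoded within the class II region, so the same values can be set out along the chromosome. In the RefSeq gene order, Tap2, Psmb8, Tap1 and Psmb9 follow one another directly and RT1-DMb is the next gene after Psmb9. These neighbours differed in astrocytes: the run from Tap2 to Psmb9 stood at 0.59, 1.06, 1.74 and 1.01 log2 at 10 µg/ml, and RT1-DMb at -0.06. At 100 µg/ml the run (as deposited, not centred) stood at 0.27, 0.35, 1.34 and 0.18, RT1-DMb at -3.23 and RT1-DMa, the alpha chain of the same exchange factor and the next gene again, at -0.85 (signals of 576, 680, 618 and 320). On the other side, RT1-Bb, a class II beta chain, read 82.4, 80.0, 61.1 and 40.3 in astrocytes, and RT1-Db1 and RT1-DOb lay near or under the floor. The class II genes of that side did not all differ from the run at 10 µg/ml. RT1-Da stood at 0.69 log2, above Tap2, and RT1-Db1 at 0.48, while RT1-Ba and RT1-Bb stood at -0.29 and -0.43.

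**Figure D4:**
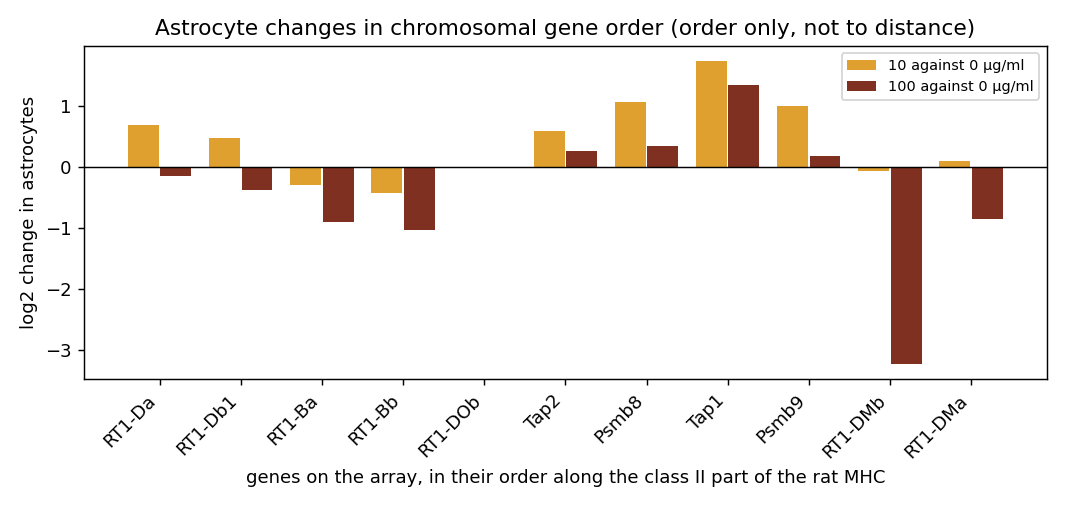
Log2 change in astrocytes at 10 (yellow) and 100 µg/ml (brown) against untreated cells, at the brightest probe set of each measured gene, in RefSeq gene order without distances. The 4 class I processing genes in the middle are above 0 at both doses, and RT1-DMb beside them is at -3.23 at 100 µg/ml; RT1-DOb, under the floor on all 7 arrays, shows no bar.

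Other genes of the class I pathway went several ways. Of 14 measured genes out of 35 listed, 3 were at least 2-fold higher at 10 µg/ml in astrocytes (4.3% of all probe sets) and 1 lower (2.21%), with a median of 0.11 log2 (-0.10 over all probe sets). Of these 4, only Calr, a chaperone of peptide loading, passed the signal filter, at 1.24 log2 (2040, 3363, 4833 and 6369), with its 3 probe sets from 0.07 to 1.24. Unlike the class I members it was higher still at 100 µg/ml, by 1.64 log2. RT1-A3 and RT1-N3, class I heavy chains, gave at least 1.37, as its untreated signal lay under the floor, and 1.35, at signals of at most 93.3. Lnpep, a peptide-trimming enzyme, was under the floor at all 3 doses above 0, a change of at most -1.62. Psme2, a subunit of the proteasome activator PA28, was at 952, 896, 1443 and 844, highest at 10 µg/ml (0.60 log2) like Psmb8 but lowest at 100 µg/ml (-0.17), and its partner Psme1 stood at 0.09 at 10 µg/ml. RT1-CE16, read by a probe set for a family of heavy chains, gave 11318, 13448, 14448 and 16115 and did not turn down at 100 µg/ml.

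The standard proteasome core stayed close to its untreated level where the immunoproteasome subunits were higher. Its 11 measured subunits had a median change of 0.06 log2 at 10 µg/ml in astrocytes (range -0.34 to 0.30), and Psmb5, the subunit that Psmb8 replaces, stood at -0.19 with signals of 5015, 4579, 4405 and 3802. At 100 µg/ml the median was -0.36 (-0.26 over all probe sets), and Psma4 was at least 2-fold lower (-1.08).

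Among 13 measured genes that accompany class II presentation, Cd40 and Cd86, costimulatory molecules, were higher at 100 µg/ml, with signals of 152, 172, 433 and 696 for Cd40 and 53.8, 65.1, 76.7 and 216 for Cd86. Their changes were 2.19 and 2.01 log2. Rfx5, a factor that binds class II promoters, was lower there at -2.04 (466, 394, 525 and 113). RT1-Bb, which did not pass the signal filter, stood at -1.03, with its 5 probe sets from -1.03 to 0.0. Of all probe sets tested, 6.63% were at least 2-fold higher at 100 µg/ml and 19.0% lower. The list median was 0.15 log2 at 10 µg/ml and -0.38 at 100 µg/ml. Lysosomal proteases of the list went both ways at the highest dose: Ctsb stood at 0.96, and Ctss, which cuts the invariant chain, at -0.71.

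Between cell types these other genes, which are not members, were tested in a limma fit over the 7 arrays with Benjamini-Hochberg adjustment. Of 10 tested class I pathway genes 5 were higher in astrocytes and 1 was lower (median 0.58 log2), where 12.2% of all 4709 probe sets were higher and 18.0% lower (30.2% either way, median -0.16). These were Fcgrt, the neonatal Fc receptor (1.33 ± 0.08 SE, adjusted p = 1.8e-05), RT1-CE16 (0.68 ± 0.12, 0.0044), RT1-M3-1, a heavy chain (1.07 ± 0.25, 0.0138), Cd1d1, which presents lipids (1.28 ± 0.32, 0.0202), Psme1 (0.53 ± 0.15, 0.0285) and, lower, Canx, a chaperone (-0.46 ± 0.09, 0.00656). Without the untreated neurons 2 were higher, as the calls of RT1-M3-1, Cd1d1 and Psme1 were lost. Psme1 also lost its call without any other single array except the astrocytes at 100 µg/ml, and with quantile normalization, no filter or a constant variance prior. Without neurons at 1 µg/ml Cd1d1 was lost too, and without neurons at 10 µg/ml RT1-M3-1, which left 3 higher in each case. Cd1d1 also lost its call with no filter and with the filter at 435.7.

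Of 9 tested genes that accompany class II, 5 were higher in astrocytes and none lower (median 1.19 log2), against 12.2% and 18.0% of all probe sets. The 5 were the lysosomal proteases Ctsb (1.90 ± 0.22 SE, adjusted p = 0.000454 in limma), Ctsl (1.68 ± 0.15, 0.000144), Ctss (1.38 ± 0.23, 0.00312) and Ctsd (0.64 ± 0.10, 0.00217), and Cd40 (1.84 ± 0.53, 0.0334). Cd40 lost its call without any one of the 3 neuron arrays or the astrocytes at 10 µg/ml. It also lost it with no filter and with the filter at 435.7. The class II gene RT1-DMa itself did not pass (0.10 ± 0.27, 0.798). Of 11 standard proteasome subunits 2 were lower in astrocytes, close to the 18.0% of all probe sets: Psmb5 (-0.35 ± 0.11, 0.0472) and Psma7 (-0.27 ± 0.08, 0.0481). Neither kept its call without any one of the neuron arrays or the astrocytes at 1 µg/ml, and 1 of them was lost without the untreated astrocytes or those at 10 µg/ml. With no floor the call of Psma7 was lost, and with no filter that of Psmb5. Over the shared doses 2 were lower without dose as a block and 0 with it, and a constant variance prior also left 0. The spread in this fit is that between doses within a cell type, and includes the response to the extract.

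Some regulators of the interferon response were, like the class I genes other than B2m, highest in astrocytes at 10 µg/ml. Irf1, a transcription factor induced by interferon, had signals of 2431, 3305, 12761 and 4720 in astrocytes, and Irf7, another, 435, 459, 999 and 442. Jak2, a kinase of the receptor pathway, was at 1.21 log2 at 10 µg/ml with probe sets from 0.13 to 2.02. Of 11 measured regulators, 3 were at least 2-fold higher at 10 µg/ml (4.3% of all probe sets) and none lower (2.21%). From 10 to 100 µg/ml 5 were at least 2-fold lower (16.0% of all), of which Ifngr1, an interferon receptor chain, did not pass the signal filter. Others went differently: Socs3, a feedback inhibitor, was highest at 100 µg/ml (50.5, 75.3, 83.2 and 96.9), and Irf8, a factor of myeloid cells, stood at 0.12 log2 at 10 µg/ml. The probe sets for the ligands Ifng and Ifnb1 read 3.5 to 28.9 and 5.2 to 32.7 on the 7 arrays, near or under the floor.

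Some markers of microglia and macrophages were lower on the array where RT1-DMb was, and others were higher. Of 13 measured markers in astrocytes at 100 µg/ml, 3 were at least 2-fold lower, close to the 19.0% of all probe sets. The first was Ptpn6, a phosphatase of blood cell lineages (1010, 1122, 1254 and 53.9). The others were Aif1 (1637, 1382, 1426 and 251, with probe sets from -2.71 to 0.35 log2) and Cx3cr1 (93.3, 100.0, 51.2 and 28.3). Cx3cr1, a chemokine receptor, did not pass the signal filter. Cd14 and Fcgr2b, an endotoxin co-receptor and an Fc receptor, were at least 2-fold higher (6.63% of all), and the remaining 8, among them C1qb at -0.79, were within 2-fold at the brightest probe set. Dimmer probe sets of 3 of these passed 2-fold lower. The ranges over probe sets were -1.12 to -0.79 log2 for C1qb, -1.07 to 0.21 for C1qc and -1.84 to -0.08 for Ptprc. The summed signal of the list was 24556, 25280, 29858 and 23597 in astrocytes and 12097 to 15513 in neurons, of which Lyz2 made up 10259 to 15616 in astrocytes. At 10 µg/ml, where the class I genes were highest, 3 of the 13 markers were at least 2-fold higher (Cd14, Fcgr2b and Cd53) and none lower, against 4.3% and 2.21% of all probe sets. Their median was 0.31 log2 (-0.10 over all probe sets). Itgam and Csf1r, further defining markers, read at most 29.0 on all 7 arrays. Of 5 lymphocyte markers 3 were under the floor on each astrocyte array. The part of these cells in the results for RT1-DMb and for class I was not tested.

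**Figure D5:**
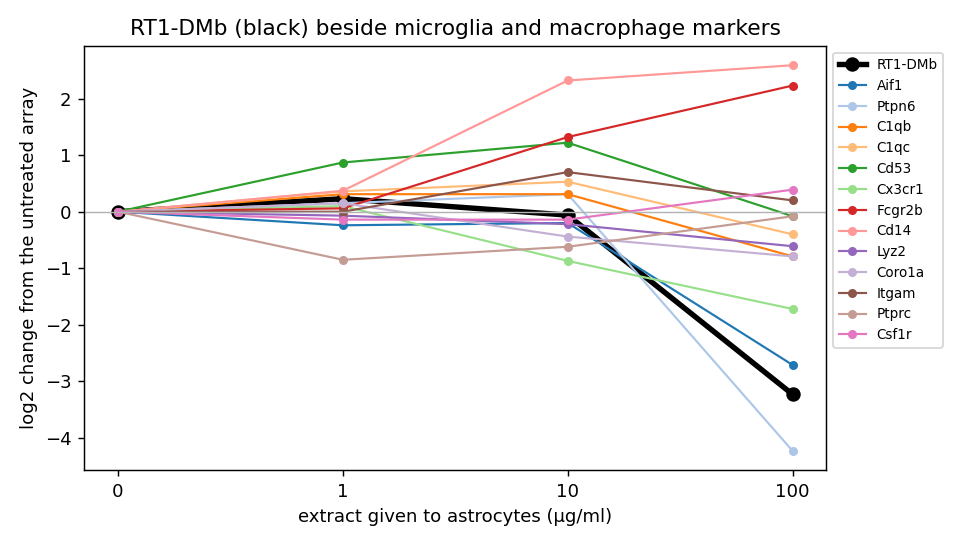
Log2 change from the untreated array in astrocytes by extract dose in µg/ml, for RT1-DMb (thick black) and all 13 measured microglia and macrophage markers, 1 array a point, brightest probe sets. RT1-DMb at -3.23 lies between Aif1 at -2.71 and Ptpn6 at -4.23 at 100 µg/ml, while Cd14 and Fcgr2b are above 2.

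The genes outside the set with the most similar profiles over the 7 arrays were found by the root mean square difference of centred log2 signals, among 2933 genes. Nearest to the mean class I profile were Arrdc4 (0.10 log2), Fgf2 (0.15), Mvp (0.16), Ralgds (0.16) and Endod1 (0.20). Mvp, the major vault protein, had signals of 1123, 1202, 1729 and 1436 in astrocytes and 573 to 678 in neurons. Nearest to the mean class II profile, which RT1-DMb dominates, were Prkch (0.13), Scarb2 (0.14), Plpp3 (0.14), Exoc7 (0.15) and Cept1 (0.15). For RT1-DMb alone, a search added after its values were seen, they were Dock8 (0.29), Pik3ip1 (0.29), Tcp11l2 (0.37), Fhl2 (0.37) and Man2a1 (0.39). Dock8, a regulator of immune cell migration, had 769, 649, 521 and 55.0 in astrocytes and 280 to 313 in neurons.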

How the data were processed

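Total RNA (100 ng) was amplified and biotin-labelled in a two-cycle procedure and hybridised to 7 Affymetrix rat arrays, per the labels' protocols. The values are signal intensities as deposited, computed by the authors with GCOS, per the submitters' processing notes. The sources used here give neither version nor settings of GCOS. The 59 control probe sets of 8799 were removed. Of the remaining 8740, 7006 had 1 gene symbol in the platform annotation, 308 several and 1426 none. Signals under 17.9 (23.2% to 27.2% of probe sets per array) were raised to it before log2 was taken. A probe set entered a comparison if its mean log2 signal in the cell type, or in either for the comparison of cell types, exceeded the median signal of 79.9, which kept 4453 in neurons, 4252 in astrocytes and 4709 in either. No detection calls were used here. A gene is represented by its brightest probe set unless stated, and all member probe sets are described whether or not they passed.

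Treated arrays were set against the untreated array of the same cell type without a test, and called at 2-fold. Neurons and astrocytes were compared with limma 3.58.1, run in R 4.3.3 (moderated statistics with an intensity trend, two-sided, Benjamini-Hochberg adjusted p threshold 0.05), tested on simulated data. Whether the arrays come from separate animals is not given, so p-values measure the spread between these arrays. Named list genes were those 2-fold changed (at most 6 per list) or carrying a call where there were few; Psme2, Psme1, RT1-CE16, RT1-DMa, Ctsb, Ctss and the marker genes were also named after their values were seen. The members and lists were chosen with earlier results of these data known, and the promoter motifs, the X and Y box pair above all, with the sequences known. Alternatives were quantile normalization, other floors and filters, the mean over probe sets, centring, another reference, another variance prior, shared doses with dose as a block, and leaving out each array. Other steps used Python 3.11.15, and matplotlib 3.10.9 drew the figures.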

Additional observations from a re-analysis of the deposited data

Results flagged for a closer look

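In 4 of the 22 member probe sets both treated neuron arrays lay below and both treated astrocyte arrays (1 and 10 µg/ml) above the untreated array of their cell type. This difference between cell types was not tested. The share of all probe sets with the same pattern was not counted, so the 4 cannot be set against a background. The log2 change at 10 µg/ml in astrocytes minus that in neurons was 1.35 and 2.12 for 2 probe sets of RT1-S3, 1.09 for the dimmest probe set of RT1-DMb and 1.05 for the brightest of RT1-Da. In the first of RT1-S3 the neuron changes were small (-0.09 and -0.00), and the brightest probe sets of RT1-S3 and RT1-DMb did not meet this rule.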

How the results depend on the processing

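The class medians kept their value within 0.262 log2 (neurons) or 0.369 (astrocytes), the SD over probe sets of the change at 1 µg/ml, under all alternatives except that the class II median was -0.15 without RT1-DMb at 100 against 0 µg/ml (a choice made after seeing the data) and -0.24 as the mean over probe sets at 100 against 10 µg/ml. Of 330 values of single members under the alternatives, 308 stayed within that spread, 22 moved and 0 reversed from a 2-fold change; 12 of the 22 came with the mean over probe sets. Counts of probe sets 2-fold apart depended on the filter. In the order neurons at 1 and 10, astrocytes at 1, 10 and 100 against 0 and 100 against 10 µg/ml, they were 25, 34, 85, 277, 1088 and 899; with no filter 355, 357, 466, 728, 1805 and 1463; with the filter at 435.7 they were 0, 1, 22, 115, 416 and 324, and with 1 value per gene 9, 14, 30, 145, 602 and 479, where fewer items were tested. With the floor at the median signal the neuron counts were 12 and 16, and with the lower doses averaged as reference it was 22 at 10 µg/ml. The share higher among 2-fold changes at 100 against 0 µg/ml was 25.9%, 40.7% after quantile normalization and 41.1% after centring; at 100 against 10 µg/ml it was 24.1%, 38.9% and 35.5%. For cell types, limma called 1423 probe sets, 892 with the stricter filter, where fewer were tested, and 936 (without the untreated neurons) to 2113 (without astrocytes at 100 µg/ml) when an array was left out. Single arrays per dose, and signals near the floor for RT1-Da, RT1-Ba and Cd74, limit the class II values.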
